A study of Mus musculus with 10 samples.

Results

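Messenger RNA levels were compared between interferon-pretreated and naive mouse embryonic fibroblasts (MEFs) at 4 h, in 1 library per arm, 2 of the 10 libraries of the series. MEFs are cells of embryonic connective tissue kept in primary culture. The naive 4 h library came from cells in their first exposure to interferon-beta (IFN-β), and the pretreated 4 h library from cells that had met interferon before. IFN-β is given at 100 U per ml for every library. The sources used here do not give how the pretreatment was done (dose, length, washout), and the 4 h were read as the time after IFN-β was added. All cells, in both arms, were of the C57BL/6 strain and carried the H3.3b-HA knock-in, an epitope-tagged cDNA of the histone variant H3.3 in place of the H3f3b gene. No library without the knock-in and none labelled as unstimulated at 4 h was analysed here. The members were the pair of columns that the deposited table labels with these arms and this time. The levels are RPKM (read counts divided by transcript length and by library depth), and differences are pretreated minus naive on the log2 scale of RPKM + 1. A gene was called 2-fold apart at a log2 difference of 1 or more in size, among the 12168 of 23370 gene symbols with at least 1 RPKM in at least 2 libraries.

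IFN-β is a secreted antiviral cytokine. It binds a receptor present on most cells and, through the kinases Jak1 and Tyk2, activates a complex of transcription factors that includes Stat2 and Irf9 and binds a DNA element called the interferon-stimulated response element (ISRE) and induces antiviral effectors, sensors of viral nucleic acid and the machinery that presents viral peptides on MHC class I molecules. Feedback inhibitors such as Socs1 and Usp18 then limit signalling. Cells that have met interferon before can respond differently to a later exposure, and fibroblasts are a standard cell type in which this is studied.

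The naive and pretreated 4 h libraries had 254 M and 241 M mapped tags (M, mega) on the transcripts used, and the series ranged from 83.9 to 268 M. With 1 library per arm, a difference at 4 h has no replicate check, and intervals given with ratios are 95% intervals of the counts (Clopper-Pearson), which cover counting error only. In bulk RNA, a change in the number of cells of a kind and a change in RNA per cell cannot be told apart. Fibroblast markers, from collagens to Vim and Pdgfrb, summed to 12861 and 12319 RPKM in the naive and pretreated 4 h libraries, against 10203 to 14951 RPKM over the series, and 11 of 12 were tested. Macrophage markers summed to 8.85 and 7.32 RPKM with 2 of 8 tested, and the endothelial, epithelial and neural lists to between 2.54 and 6.51 RPKM. The lymphoid and skeletal muscle lists had 0 members tested and 2 members at 0 each. The pretreated 1 and 4 h libraries stood apart from the pretreated 0, 2 and 6 h libraries in a few of the 12168 tested genes. In 9 genes, led by the imprinted RNA H19 and by Igfbp2, both lay 2-fold or more above all 3 others. In 3 genes, Gpnmb, Itgb7 and Cck, both lay 2-fold or more below. The same split of the naive arm gave 0 and 0 genes, and other splits were not counted. The part of these features in the differences below was not tested.

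At 4 h the arms had nearly the same transcript levels. The pretreated library was 2-fold or more higher in 29 genes (0.238% of those tested) and 2-fold or more lower in 16 genes (0.131%). Differences smaller than 0.5 were seen in 96.55% of genes, and the median of all genes was -0.01. The SD of the differences over all genes was 0.21 at 4 h, against 0.51, 0.42, 0.38 and 0.23 at 0, 1, 2 and 6 h. The 29 higher genes were led by the nuclear receptor gene Nr4a1 and held transcripts of immediate early factors, secreted growth factors, contractile proteins and MHC class I heavy chains. The 16 lower genes were led by the protease inhibitor gene Serpina3n and both metallothionein genes.

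**Figure D1:**
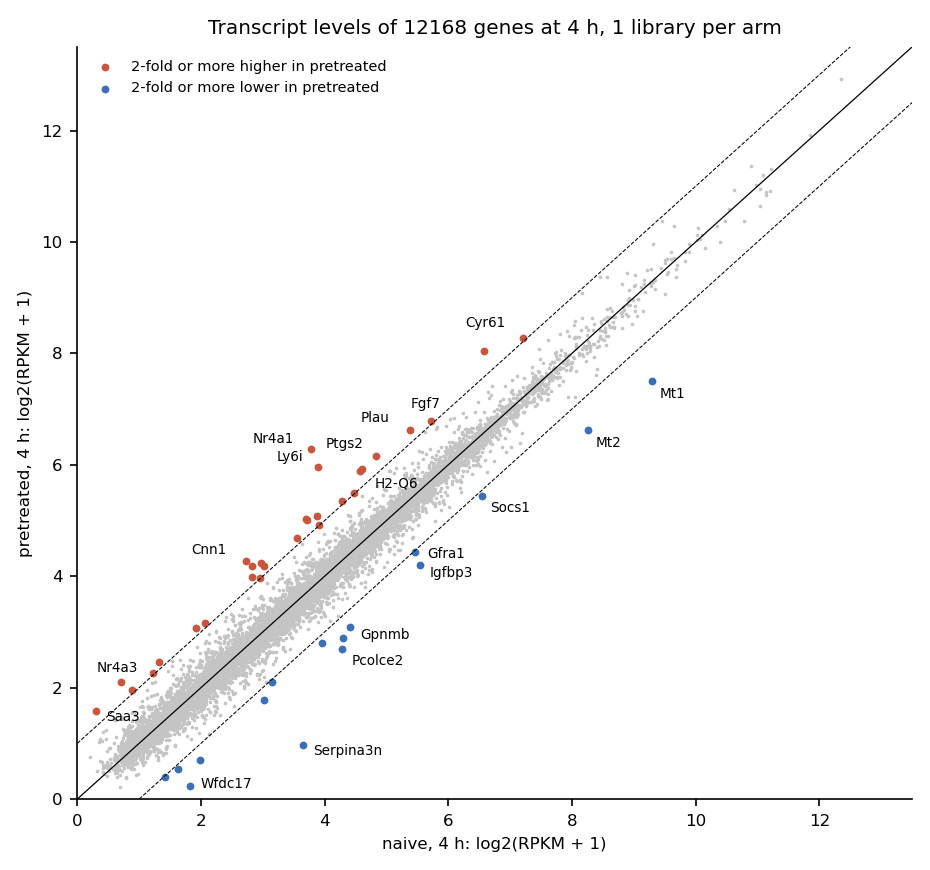
Level of each of the 12168 tested genes at 4 h in the naive (x axis) and the pretreated library (y axis), both as log2(RPKM + 1), with 1 point per gene and 1 library per arm. The solid line marks equal levels and the dashed lines a 2-fold difference; 29 genes lie above the upper and 16 below the lower dashed line.

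The interferon response itself stood at similar levels in both libraries. Ifit3, an RNA-binding antiviral effector, was at 1099 RPKM in the naive library and at 1118 RPKM in the other, and values below follow this order, naive before pretreated. Stat2 was at 244 and 224 RPKM, the immunity-related GTPase gene Iigp1 at 451 and 453 RPKM, and the cytosolic RNA sensor gene Ddx58 at 152 and 150 RPKM. Of the 29 genes of an interferon panel, 18 were above 0 (48.1% of all tested genes were) and 0 were 2-fold apart, with a median difference of 0.08. At 0, 1, 2 and 6 h the panel's median was 3.59, 2.02, 1.0 and -0.30.

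Within the panel the differences ran from -0.76 to 0.75. At the upper end were Oas1a, an oligoadenylate synthetase that activates RNase L (67.4 and 114 RPKM), Isg15, a ubiquitin-like modifier (195 and 300 RPKM), and B2m, the MHC class I light chain (5250 and 7781 RPKM). Usp18, which removes Isg15 from proteins and holds the receptor in check, was at 287 and 399 RPKM. At the lower end were the transcription factor gene Irf1, with 97.8 and 57.3 RPKM, and Oasl1, with 33.6 and 26.1 RPKM. Over the panel, 4 members were higher and 1 was lower by 0.5 or more, where 1.87% and 1.59% of all genes were. Reads of Oas1a and the near-identical Oas1g (55.6 and 101 RPKM) may not be separable.

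Neighbouring parts of the interferon program had medians close to 0 as well. The antiviral effectors had a median of 0.03 over 34 genes, the interferon-inducible GTPases of -0.01 over 19, the nucleic acid sensors of -0.00 over 18, the interferon signalling factors of -0.03 over 16 and the feedback regulators of -0.02 over 13. In these lists 5, 2, 1, 0 and 1 members were higher by 0.5 or more, and 0, 0, 0, 1 and 1 were lower. The shares of all tested genes were 1.87% and 1.59%, and single members of lists this short do not set a list apart. Single genes departed from their list. Gbp9, a guanylate-binding protein gene, was at 21.3 and 44.1 RPKM, and its neighbour Gbp4 at 11.4 and 22.8 RPKM, while Gbp2 was at 619 and 617 RPKM. Among the members of nuclear bodies, Sp140 was at 14.01 and 29.3 RPKM and Sp100 at 64.3 and 112 RPKM, against 88.2 and 80.4 RPKM for Pml. Sp140 and Sp100 are related in sequence to each other and to Gm7609, another of the 29 higher genes (6.71 and 14.7 RPKM), which is named here although it lies outside the rule for named genes.

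MHC class I heavy chain transcripts were the clearest exception within the interferon program. These molecules carry peptides from inside the cell to its surface for inspection by T cells. Of 12 genes, namely the heavy chains and B2m, 7 were higher by 0.5 or more and 10 were above 0, with a median of 0.62. Of all tested genes, 1.87% and 48.1% were. The RPKM of the 12 genes summed to 6732 in the naive and 10252 in the pretreated library. H2-K1 was at 379 and 665 RPKM and H2-D1 at 348 and 657 RPKM. The 13 genes for peptide supply, loading and the transactivator Nlrc5 had 0 members higher by 0.5 or more and a median of 0.04. Tap1, a subunit of the peptide transporter, was at 160 and 165 RPKM, Tapbp, the bridge between transporter and heavy chain, at 389 and 364 RPKM, and Psmb8, an immunoproteasome subunit, at 106 and 124 RPKM. This split of the list was made after the values were seen.

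The heavy chains differed by locus. H2-K1, H2-D1 and H2-L were apart by 0.81 to 0.93, H2-Q genes by 0.52 to 1.32 in all 9 that were tested, and H2-T and H2-M3 genes by -0.19 to 0.28. H2-T23, which encodes the nonclassical molecule Qa-1, was at 102 and 94.98 RPKM, and H2-T22 at 165 and 185 RPKM. Among the Qa-2 genes, H2-Q6 was at 1.1, 1.56, 3.46, 23.4 and 15.2 RPKM in naive cells at 0, 1, 2, 4 and 6 h and at 20.5, 36.6, 27.0, 59.9 and 42.1 RPKM in pretreated cells. Its pretreated value was thus the higher at every time, and the naive values at 4 and 6 h were within or below the pretreated range. H2-Q7 had 12.1 and 31.6 RPKM at 4 h. H2-Q6 shares its locus and strand with H2-Q8 in the table, and H2-Q7 with H2-Q9, so the 4 near-equal differences of 1.30 to 1.32 are not 4 separate measurements. H2-D1 and H2-L overlap in the same way. The H2-Q genes were gathered as a list after the values were seen.

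The likeness of these neighbours extends to their promoters. The stretches below are shown so that the likeness of these duplicated genes can be seen. From RefSeq (GRCm38.p6), 100 bases ahead of H2-Q6 (chr17:35424711-35424810, + strand) and of H2-Q7 (chr17:35439055-35439154, + strand) agree in 97 positions, and the 3 capitals in each mark those that differ.
H2-Q6: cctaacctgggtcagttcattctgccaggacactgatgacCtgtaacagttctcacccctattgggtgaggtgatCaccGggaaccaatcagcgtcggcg
H2-Q7: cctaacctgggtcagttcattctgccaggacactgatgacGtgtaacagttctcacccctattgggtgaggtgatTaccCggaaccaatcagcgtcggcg
Both stretches hold the letters attgg, the reverse complement of the CCAAT box, and a ccaat on the printed strand. CCAAT was found on either strand in 37.4% of all 32851 promoter windows of 300 bases. It was found in 14 of 19 genes with a window when heavy chains, B2m, Nlrc5 and the peptide supply and loading genes were pooled. The heavy chains were not counted apart.

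Immediate early genes were for the most part higher in the pretreated 4 h library. These genes encode short-lived regulators that growth factors, stretch or stress induce within minutes without new protein synthesis. Of 31 tested, 27 were above 0 and 14 were higher by 0.5 or more, against 48.1% and 1.87% of all tested genes. With 0 members lower by 0.5 or more, the median was 0.46. At 0, 1, 2 and 6 h the list's median was -0.01, -0.46, 0.21 and 0.38. At 1 h 22 members were below 0, where 47.05% of all genes were. Nr4a1, an orphan nuclear receptor gene, was at 11.2, 29.7, 3.88, 12.7 and 13.4 RPKM in naive cells over the 5 times and at 10.3, 42.3, 5.93, 76.8 and 27.0 RPKM in pretreated cells. The pretreated 4 h value was the highest of the 10 libraries, and its ratio to naive was 6.05 (95% interval 5.90 to 6.19, counts 7950 and 45669). The related receptor genes Nr4a2 and Nr4a3 were at 4.73 and 8.73 RPKM and at 0.636 and 3.28 RPKM.

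Other factors of the group followed at smaller distances. Egr3, a zinc finger factor gene, was at 2.82 and 5.66 RPKM, and Fosl2, a subunit of the AP-1 dimer, at 27.9 and 48.4 RPKM. The Egr3 difference was -1.21, -0.79, -0.98 and -0.41 at 0, 1, 2 and 6 h. Btg2, an antiproliferative gene that is also a p53 target, was at 6.12 and 14.8 RPKM, and between 4.16 and 9.44 RPKM in the other 8 libraries. Dusp1, a phosphatase that switches off MAP kinases, was at 33.8 and 56.5 RPKM. Other members were level or lower. Jun was at 44.8 and 46.9 RPKM, Klf4 at 103 and 81.8 RPKM, and the stress factor gene Atf3 at 13.97 and 9.69 RPKM.

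Genes for actin and its partners, many of them known targets of serum response factor (SRF) or of YAP, were all on the same side. SRF binds a sequence called the CArG box and, with the actin-sensing coactivator MRTF, drives contractile genes. All 15 tested members were above 0, 8 by 0.5 or more, against 48.1% and 1.87% of all tested genes. The median was 0.58. The list's median was -0.30, 0.04, -0.15 and 0.31 at 0, 1, 2 and 6 h. Cnn1, a calponin of smooth muscle type that binds actin, was at 20.8, 21.6, 16.1, 5.61 and 6.90 RPKM in naive cells and at 12.9, 27.0, 9.85, 18.4 and 8.23 RPKM in pretreated cells. In both arms Cnn1 was thus lower at 6 h than at 0 h, and the pretreated 4 h library lay within the range of the earlier libraries. Its ratio at 4 h was 3.28 (3.14 to 3.43).

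The abundant members differed less in ratio and more in RPKM. Acta2, smooth muscle actin, was at 800 and 1241 RPKM, Tpm1, a tropomyosin, at 636 and 1003 RPKM, and Actb at 1897 and 2631 RPKM. Myl9, a myosin light chain, was just under the threshold with 48.5 and 95.6 RPKM, and Srf itself was at 17.3 and 28.2 RPKM. Actb is a usual reference gene, and the other 15 reference genes lay between -0.35 and 0.22. Cyr61, a secreted matrix protein gene that is also counted among immediate early genes, was at 148 and 310 RPKM.

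Promoter windows were searched for the CArG box because the contractile genes were all on 1 side; the motif was chosen after the values were seen. It was found on either strand in 5 of 10 contractile genes with a window (Cnn2, Myl9, Vcl, Srf and Acta1), in 4 of 23 immediate early genes and in 1.63% of all windows. A match describes letters and not binding, and Cnn1 is not among the matches. The list was drawn up to hold known SRF targets, so its share of matches does not bear on the difference at 4 h. Stretches of 120 bases from RefSeq (GRCm38.p6) follow for Cnn2 (chr10:79988450-79988569, + strand), Myl9 (chr2:156775244-156775363, + strand) and Srf (chr17:46556163-46556282, - strand), with the box in capitals.
Cnn2: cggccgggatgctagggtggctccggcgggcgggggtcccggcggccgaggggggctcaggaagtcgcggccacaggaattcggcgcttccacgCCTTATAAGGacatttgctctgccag
Myl9: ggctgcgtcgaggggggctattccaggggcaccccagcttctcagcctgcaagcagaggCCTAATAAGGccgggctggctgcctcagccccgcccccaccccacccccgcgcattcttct
Srf: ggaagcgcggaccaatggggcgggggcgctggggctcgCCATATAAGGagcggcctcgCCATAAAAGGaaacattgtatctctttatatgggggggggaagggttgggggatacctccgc
The Srf window held 2 matches and the other pair 1 each. At 4 h Cnn2 was at 262 and 364 RPKM.

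Secreted growth factors were also represented among the higher genes. Of 20 growth factor and TGF-beta response genes, 18 were above 0 and 7 were higher by 0.5 or more. Of all tested genes, 48.1% and 1.87% were. The list had 0 members lower by 0.5 or more and a median of 0.26. Beside this list, Plau, the secreted protease urokinase, which activates plasminogen, was at 43.2, 50.3, 32.7, 40.8 and 52.5 RPKM in naive cells and at 76.1, 68.5, 53.3, 97.8 and 109 RPKM in pretreated cells. It was the higher in pretreated cells at all 5 times, with a ratio of 2.40 (2.36 to 2.43) at 4 h.

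Ligands of the EGF receptor were among them. Hbegf was at 6.86 and 17.8 RPKM and Ereg at 1.32 and 3.81 RPKM. Inhba, the activin A subunit, was at 13.7 and 33.0 RPKM and Fgf7, a growth factor for epithelium, at 52.0 and 110 RPKM. Tgfb1 was at 12.3 and 12.6 RPKM and its inhibitory signal transducer Smad7 at 9.31 and 10.98 RPKM. The list had 5 of 20 members 2-fold higher, among them Hbegf, Inhba, Fgf7 and Ereg, against 0.238% of all tested genes.

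Inflammatory mediators were mixed. Ptgs2, the inducible cyclooxygenase of prostaglandin synthesis, was at 15.3, 15.6, 29.5, 27.4 and 21.4 RPKM in naive cells and at 27.9, 31.2, 65.2, 70.1 and 49.1 RPKM in pretreated cells, higher in the pretreated library at all 5 times. Of 20 chemokines and cytokines, 6 were higher and 1 was lower by 0.5 or more, where 1.87% and 1.59% of all genes were. The median of this list was 0.22. Cxcl11, a ligand of Cxcr3 on T cells, was at 2.78 and 7.45 RPKM, Lif at 1.498 and 4.49 RPKM and Cxcl1, which attracts neutrophils, at 5.77 and 11.2 RPKM. The most abundant chemokine transcripts were nearly level, with Cxcl10 at 1051 and 1225 RPKM and Ccl2 at 724 and 818 RPKM. Tnfsf10, the death ligand TRAIL, was at 25.2 and 15.4 RPKM.

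Of the remaining higher genes, Ly6i, a membrane protein gene of the Ly6 family, whose members are alike in sequence, was at 13.9 and 61.2 RPKM, a ratio of 4.41 (4.24 to 4.59). The platelet-type chemokine gene Ppbp was at 6.08 and 17.2 RPKM and the transcription cofactor gene Lbh at 7.07 and 17.2 RPKM. Saa3, an acute-phase protein gene, was low throughout, with 31 counts in the naive and 255 in the pretreated 4 h library, a ratio of 8.65 (5.95 to 13.0). It was above naive in the pretreated arm at all 5 times. Thbs1, a matrix glycoprotein gene, was just under the threshold with 699 and 1320 RPKM.

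**Figure D2:**
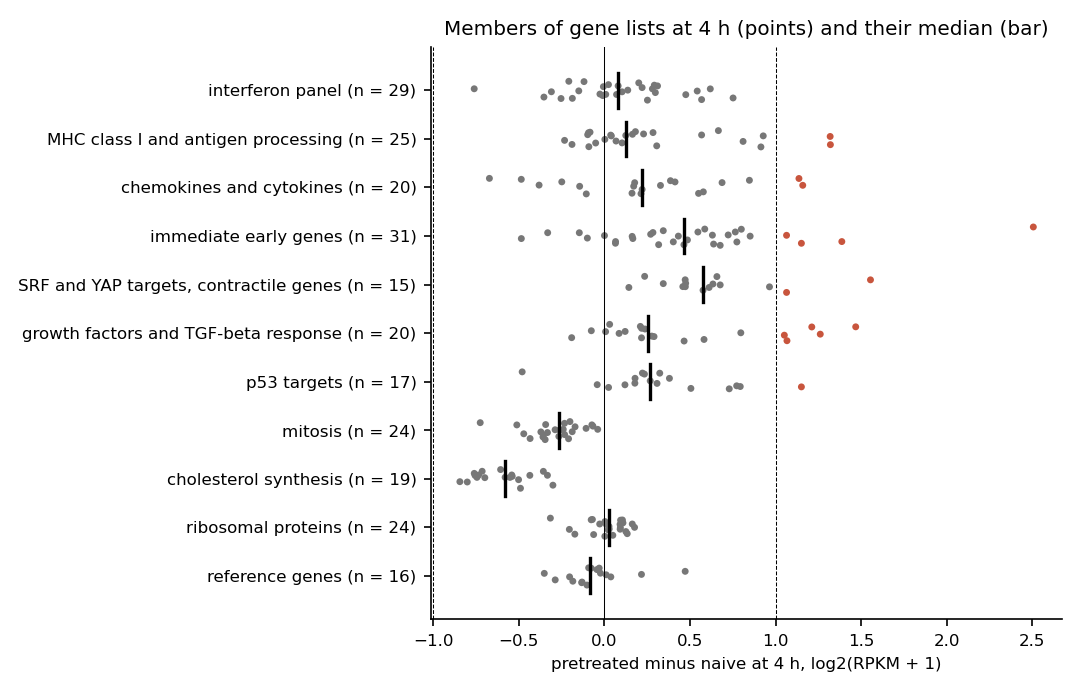
Difference between pretreated and naive libraries at 4 h, on the log2(RPKM + 1) scale (x axis), for members of 11 gene lists (rows), with 1 grey point per gene, red points for genes 2-fold or more apart, a black bar at the median of each list and dashed lines at a 2-fold difference. The contractile genes lie to the right of 0 and the cholesterol synthesis and mitosis genes to the left, while ribosomal protein genes centre at 0.03.

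Among the lower genes, both metallothioneins stood out by abundance. Metallothioneins are small cysteine-rich proteins that bind zinc and copper, and zinc induces them through the factor Mtf1. Mt1 was at 480, 778, 610, 625 and 343 RPKM in naive cells over the 5 times and at 781, 282, 613, 180 and 400 RPKM in pretreated cells. Mt2 was at 148, 255, 343, 305 and 235 RPKM and at 231, 117, 310, 97.7 and 224 RPKM. In both genes the pretreated 1 and 4 h libraries were the lowest of that arm, and the difference between the arms was negative at 1 and 4 h (-1.46 and -1.79 for Mt1, -1.12 and -1.63 for Mt2) and above 0 at 0 h. At 4 h the naive level was 3.47 times (3.42 to 3.52) the pretreated level for Mt1 and 3.12 times (3.06 to 3.18) for Mt2.

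Mt1 and Mt2 lie next to each other on chromosome 8, and their promoters are shown because Mtf1 binds a short metal response element. The forms TGCACNC and TGCGCNC were searched on both strands, a choice made after the values were seen, and matches may overlap. The 300-base windows held 3 matches for Mt1 and 4 for Mt2, where 25.7% of all windows held any, 1.97% held at least 3 and 0.518% at least 4. The stretches from RefSeq (GRCm38.p6) at chr8:94178969-94179088 (+ strand, Mt1) and chr8:94172468-94172587 (+ strand, Mt2) have 1 and 2 of these matches, in capitals.
Mt1: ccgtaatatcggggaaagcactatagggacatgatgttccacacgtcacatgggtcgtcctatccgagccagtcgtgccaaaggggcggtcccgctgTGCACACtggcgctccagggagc
Mt2: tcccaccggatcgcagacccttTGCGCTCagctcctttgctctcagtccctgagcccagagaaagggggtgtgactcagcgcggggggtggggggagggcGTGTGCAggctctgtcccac
The capitals near the end of the Mt2 stretch are a match on the opposite strand.

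Serpina3n, a secreted inhibitor of serine proteases, had the largest difference of all tested genes. It was at 3.14, 15.6, 15.6, 11.5 and 12.0 RPKM in naive cells and at 1.65, 1.32, 1.70, 0.958 and 1.16 RPKM in pretreated cells. All 5 pretreated values lay below all 5 naive values, and the naive 4 h level was 12.0 times (10.97 to 13.2) the pretreated level. Its neighbour in the same gene cluster, Serpina3f, was just under the threshold with 7.29 and 3.302 RPKM. Wfdc17, a small secreted protein gene, was also lower at 4 h, on few counts (302 and 20). Reads may be shared among Serpina3 genes.

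Pcolce2 and Prg4 were also lower in the pretreated library at every time. Pcolce2, which enhances the processing of procollagen, was at 19.4, 23.4, 22.5, 18.4 and 15.0 RPKM in naive cells and at 6.25, 8.40, 6.70, 5.50 and 4.56 RPKM in pretreated cells. Prg4, the joint lubricant lubricin, was at 18.7 and 6.43 RPKM at 4 h, and overlaps Tpr (43.9 and 41.8 RPKM) on the opposite strand. Both belong to a list of 29 fibroblast matrix genes whose median was 0.04, and the abundant members were level, with Col1a1 at 3707 and 3870 RPKM and Sparc at 2375 and 2529 RPKM. Among matrix proteases Mmp3 was at 5.50 and 3.004 RPKM.

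Binding proteins of insulin-like growth factors were not all on 1 side. Igfbp3 was at 45.4 and 17.5 RPKM, with 13.95, 15.4, 19.5 and 47.9 RPKM in naive cells at 0, 1, 2 and 6 h and 13.0, 7.85, 27.8 and 30.9 RPKM in pretreated cells. Igfbp5 was at 142 and 83.1 RPKM, while Igfbp4 was at 59.96 and 62.0 RPKM and Igfbp7 at 22.7 and 30.5 RPKM. Gfra1, a receptor subunit for GDNF-family ligands, was at 42.9 and 20.7 RPKM, and Gm10007, a noncoding RNA on the opposite strand within Gfra1, at 7.91 and 3.302 RPKM. Reads of this pair cannot be told apart, since no source used here states that counting used strand. Mir5121 (14.5 and 5.96 RPKM) lies inside the ribosomal protein gene Rpl13a (169 and 171 RPKM), so its value may come from the host transcript.

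Socs1, which binds and blocks Jak1, was the only 2-fold lower gene among the interferon signalling factors and feedback regulators. Naive cells had 8.91, 161, 157, 92.6 and 65.0 RPKM and pretreated cells 12.0, 131, 206, 42.6 and 33.2 RPKM. In both arms the highest values were at 1 and 2 h, and the pretreated value was the higher at 0 and 2 h and the lower at 1, 4 and 6 h. At 4 h naive was 2.17 times (2.13 to 2.22) pretreated. Irf1 had a similar course, with 115, 97.8 and 87.4 RPKM in naive cells at 2, 4 and 6 h and 138, 57.3 and 65.9 RPKM in pretreated cells. Of the other inhibitors, Socs3 was at 13.2 and 12.2 RPKM and Socs2 at 18.6 and 13.0 RPKM.

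The promoter of Socs1 is shown because it carries 2 overlapping matches to an ISRE core (GAAA, any 2 bases, GAAA), although Socs1 and the level interferon genes differ in their values at 4 h. The core was found on either strand in 16 of 23 panel genes with a window, in 2 of 18 higher and 2 of 14 lower genes, and in 3.44% of all windows. The stretch is from RefSeq (GRCm38.p6) at chr16:10785567-10785686 (- strand), with both matches joined in capitals.
Socs1: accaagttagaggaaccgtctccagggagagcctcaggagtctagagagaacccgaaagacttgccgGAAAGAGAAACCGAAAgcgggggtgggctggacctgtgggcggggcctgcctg

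**Figure D3:**
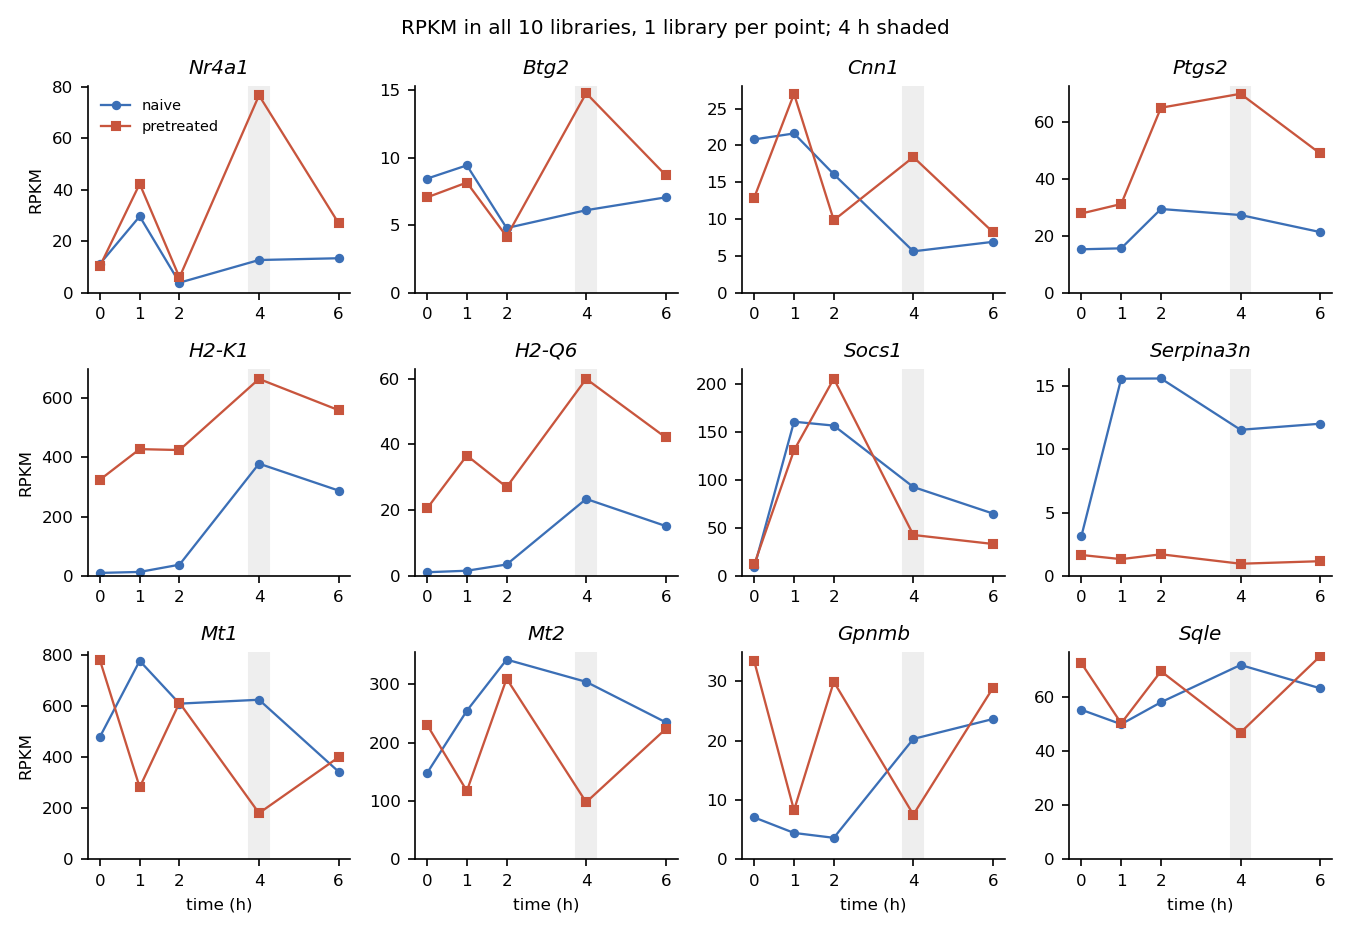
RPKM (y axis, starting at 0) over time in hours (x axis) for 12 genes in all 10 libraries, with naive cells as blue circles, pretreated cells as red squares and 4 h shaded; each point is 1 library and has no error bar. Nr4a1 and Btg2 have their highest value in the pretreated 4 h library, Serpina3n is low in the pretreated arm at all times, and Mt1 and Gpnmb are low in the pretreated 1 and 4 h libraries.

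Cholesterol synthesis genes were lower in the pretreated 4 h library without exception. The pathway makes sterols from acetyl-CoA and is switched on by the factor Srebf2 when membrane sterol is scarce. All 19 tested genes were below 0 and 14 were lower by 0.5 or more, against 51.9% and 1.59% of all tested genes. The median of the 19 was -0.58 and the range -0.84 to -0.30. None of the 19 was 2-fold lower, where 0.131% of all genes were. Idi1, an isomerase of the isoprenoid steps, was at 24.3 and 13.1 RPKM, and Sqle, which epoxidises squalene, at 72.0 and 46.9 RPKM. Insig1, which retains the Srebf2 precursor in the endoplasmic reticulum, was at 27.5 and 18.1 RPKM.

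The sign of this list was not the same at other times. At 0, 1, 2 and 6 h the median was 0.39, -0.05, 0.39 and 0.24, with 18, 8, 18 and 18 members above 0. Of all tested genes, 49.99%, 52.92%, 45.31% and 61.64% were above 0 at these times. Sqle was at 55.4, 49.996, 58.1, 72.0 and 63.3 RPKM in naive cells and at 72.6, 50.3, 69.6, 46.9 and 75.2 RPKM in pretreated cells. The pretreated 4 h value was thus the lowest of the 10 and the naive 4 h value among the highest. The pretreated 1 h library was the other low value of its arm.

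A sterol regulatory element core, TCACNCCAC, was searched on both strands after the values were seen. It was found in 1 of 11 cholesterol synthesis genes with a window, Hmgcs1, and in 1.24% of all windows, while the CCAAT box was found in 10 of the 11. The stretch is shown to place that element, in capitals, ahead of the gene for the synthase that makes HMG-CoA, from RefSeq (GRCm38.p6) at chr13:119690201-119690320 (+ strand).
Hmgcs1: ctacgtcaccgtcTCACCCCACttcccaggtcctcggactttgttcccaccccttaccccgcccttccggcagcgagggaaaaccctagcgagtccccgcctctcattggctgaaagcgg
Hmgcs1 was at 95.2 and 66.9 RPKM at 4 h.

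Mitosis genes were likewise all below 0 at 4 h, in 24 of 24 members, with a median of -0.26 and 2 members lower by 0.5 or more. Of all tested genes, 51.9% were below 0 and 1.59% were lower by 0.5 or more. Ccnb2, a mitotic cyclin, was at 34.0 and 20.2 RPKM and Mki67, a marker of cycling cells, at 21.96 and 15.1 RPKM. Every member was below 0 at each of the other times too, with medians of -0.49, -0.83, -0.55 and -0.24 at 0, 1, 2 and 6 h. Genes of DNA replication were nearer to 0, with a median of -0.07 and 19 of 25 below 0. Of 17 p53 targets, 15 were above 0 and 5 were higher by 0.5 or more, against 48.1% and 1.87% of all tested genes. The median of the p53 targets was 0.27. Cdkn1a, the cell cycle inhibitor p21, was at 77.8 and 96.5 RPKM and Pmaip1, a proapoptotic gene, at 0.548 and 1.68 RPKM.

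Housekeeping lists stayed near 0. The median was 0.03 over 24 ribosomal protein genes, -0.05 over 19 oxidative phosphorylation genes and -0.08 over 16 reference genes, with 0 members past 0.5 in any of the 3. Heat shock genes had a median of 0.05 and 0 of 12 members past 0.5. Differences smaller than 0.5 were seen in 96.55% of all tested genes, so these counts of 0 do not set the lists apart. Genes of H3.3 and its chaperones had a median of -0.08. H3f3b, the knock-in locus, was at 11.9 and 10.6 RPKM, and between 10.6 and 14.9 RPKM over all libraries.

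**Figure D4:**
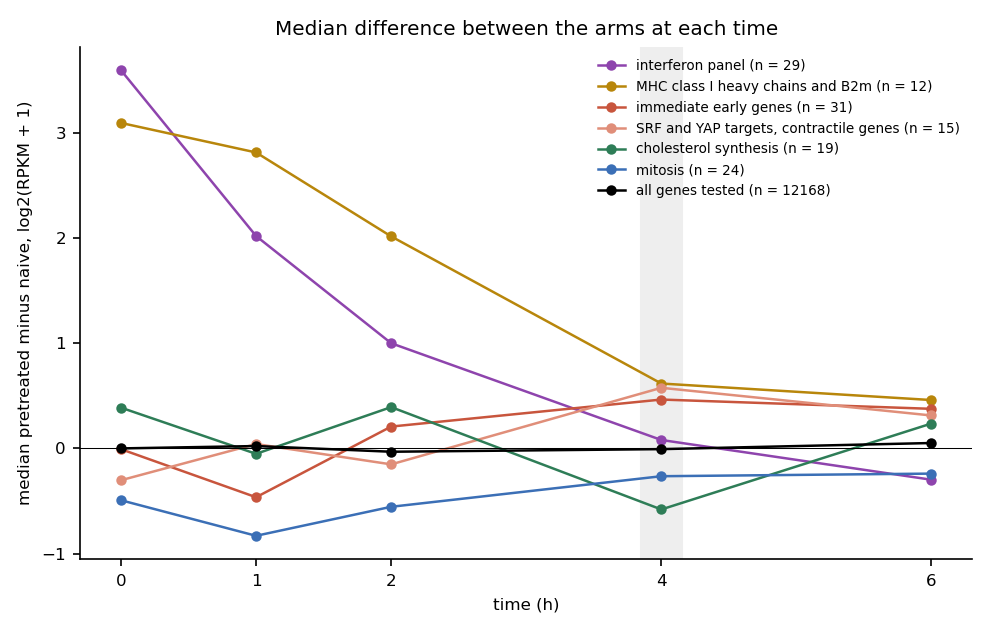
Median difference between pretreated and naive libraries (y axis, log2(RPKM + 1) scale) at each time in hours (x axis) for 6 gene lists and for all 12168 tested genes (black), with 1 pair of libraries per time and 4 h shaded. The interferon panel goes from 3.59 at 0 h to 0.08 at 4 h, the heavy chains and B2m remain at 0.62, and the cholesterol synthesis genes are below 0 at 4 h and above 0 at 0, 2 and 6 h.

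The 2-fold genes differed in how far they kept their side at other times. Of the 29 higher genes, 18, 23, 21 and 29 were above 0 at 0, 1, 2 and 6 h, where 49.99%, 52.92%, 45.31% and 61.64% of all genes were, and 18 were above 0 at all 4. They were 2-fold or more higher in 9, 10, 10 and 10 cases, against 2.56%, 1.55%, 1.55% and 0.156% of all genes. At each of these times the cases included H2-Q5, H2-Q6, H2-Q7, H2-Q8 and H2-Q9. Of these, H2-Q6 and H2-Q8 overlap, as do H2-Q7 and H2-Q9, so they are not separate cases. Of the 16 lower genes, 6, 11, 8 and 13 were below 0, against 49.99%, 47.05%, 54.68% and 38.35% of all genes, and 5 at all 4, so that at 0 and 2 h their share did not exceed that of all genes. In 4, 6, 5 and 6 cases they were 2-fold or more lower, against 0.838%, 0.814%, 0.953% and 0.214% of all genes, while 5 at 0 h and 3 at 2 h were 2-fold or more higher. These pairs do not share libraries with the 4 h pair, but libraries of 1 arm may share a culture, which the labels do not say. In 25 of the 29 higher genes and 10 of the 16 lower genes, the pretreated 4 h value lay beyond both the 2 h and the 6 h value of its own arm in the called direction. The naive 4 h value lay beyond both of its neighbours on the side that widens the difference in 5 of the 29, Cnn1 and Ppbp among them, and in 4 of the 16, Mt1 and Prg4 among them. The matching shares of all tested genes were not counted. The genes were called on these same 4 h values, which favours such positions, so no conclusion is drawn from these counts.

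The differences were also taken with the mean of the pretreated 2 and 6 h libraries in place of the pretreated 4 h library. The counts became 6 higher and 43 lower, of which 1 and 5 were among the 29 and 16. Nr4a1 then differed by 0.35, Cnn1 by 0.60, Mt1 by -0.30 and Mt2 by -0.19, while Socs1 differed by 0.36, opposite to its sign at 4 h. Serpina3n, at -2.37, and Ptgs2, at 1.04, kept a 2-fold difference. The median of the cholesterol synthesis genes was then -0.05, that of the immediate early genes 0.06, that of the contractile genes 0.27 and that of the mitosis genes 0.32, while the interferon panel was at -0.04. With the mean of the naive 2 and 6 h libraries in place of naive 4 h instead, the counts became 76 higher and 49 lower, of which 23 and 9 were among the 29 and 16. Nr4a1 then differed by 3.01, Cnn1 by 0.64, Mt1 by -1.40 and Mt2 by -1.55. The median was 0.69 for the immediate early genes, 0.34 for the contractile genes, -0.29 for the cholesterol synthesis genes, -1.04 for the mitosis genes and 0.34 for the interferon panel. The differences of Nr4a1 and the immediate early genes shrank only when the pretreated library was replaced. Those of the metallothioneins, the contractile genes and the cholesterol genes shrank under either replacement, and more when the pretreated library was replaced. These shifts cannot show which library carries a difference. The 2-fold genes were called on the 4 h values, so replacing a 4 h library tends to shrink them. The mean of 2 and 6 h also holds change over time.

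Whether the difference at 4 h departs from that at other times was tested with edgeR's quasi-likelihood test in a model of time, arm and arm by 4 h over the 10 libraries, with 3 residual degrees of freedom. Its p-values measure how far the arm difference varies between times and not between cultures. Of 12168 genes, 0 passed an adjusted p of 0.05 (0.0%), the smallest adjusted p was 0.997, and 392 had an unadjusted p below 0.05. That count is lower than a threshold of 0.05 alone would give over 12168 genes without any difference. DESeq2 on the same model called 17 genes (0.14%), and limma on log2(RPKM + 1) called 0. The DESeq2 term was positive in 12 of the 17 and negative in 5. Its sign is that of the 4 h difference relative to the other times, not of the 4 h difference itself. Col12a1, among the 12, differed by 0.14 at 4 h, and Elovl7, among the 5, by -0.05. In counts simulated at these depths, the edgeR test recovered 10% of genes changed 2-fold and 80% of those changed 4-fold. It also called 14 unchanged genes there. Apart from the changed genes, the simulated arm difference was the same at all times. In the data it was not, with the interferon panel's median at 3.59 at 0 h and -0.30 at 6 h. The recovered shares may therefore not hold for the data, and the 0 calls do not show that differences were absent.

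Some of the smallest edgeR p-values belonged to immediate early and cholesterol synthesis genes. Btg2 had a term of 1.39 (SE 0.24) and Nr4a1 of 2.11 (SE 0.37), each with an adjusted p of 0.997 in edgeR's test. Adamts1, a matrix-cleaving protease gene, was at 23.2 and 42.4 RPKM at 4 h and had a term of 0.99. Egr3 and Tmem119 completed the 5 smallest in the positive direction. In the negative direction were Fnip2 (term -1.29), the cholesterol synthesis genes Sc4mol (-0.95) and Insig1 (-0.93), the fatty acid desaturase gene Scd3 (-1.05) and the elongase gene Elovl7 (-0.93). Elovl7 was level at 4 h, with 3.08 and 2.94 RPKM, and higher in pretreated cells at 0, 1, 2 and 6 h by 0.84, 0.59, 0.60 and 0.80. DESeq2 gave adjusted p-values of 0.000479 for Nr4a1, 0.000982 for Btg2 and 0.0112 for Sc4mol.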

How the data were processed

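Total RNA from MEFs was sequenced on an Illumina HiSeq2000, and mm10, Cufflinks 1.2.1, TopHat and Bowtie are named in the submitters' processing notes, without roles. Per the file headers, the deposited table holds, per library and RefSeq transcript, tag counts and RPKM. Counts were deposited unnormalised, and the authors computed the RPKM before deposit; their log2 ratio was constant per library and gene to within 0.000167 in genes of 5 RPKM or more. No source used here gives the counting tool, its use of strand or its treatment of multiple alignments. Rows without a gene name (15 of 30646, up to 0.0193% of counts) were left out. For 4306 symbols with several transcripts, the one of highest mean RPKM was kept, and 11202 symbols did not pass the filter.

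Differences used a pseudocount of 1 RPKM, which understates folds of low genes. Between single libraries no test was made. Counts were tested with edgeR 4.0.16 (TMM), with limma 3.58.1 and DESeq2 1.42.0 as alternatives, under Benjamini-Hochberg adjustment; edgeR was tested on simulated data. SE is the term over the root of F. Named genes were the 20 largest higher and 16 largest lower 2-fold genes, the interferon panel, of each list the 4 most abundant and 2 most different members, other members beside their list, and the smallest p-values. Members and lists were chosen with earlier results of these data known. Promoter windows (250 bases before to 50 after a start) are from RefSeq, matched by symbol. A few genes within this rule were left out of the text.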

Additional observations from a re-analysis of the deposited data

Results flagged for a closer look

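Of the 16 lower genes at 4 h, 3 were 2-fold or more apart in the opposite direction at 2 h. At 0 h this held for 5, namely the same 3 and Mir5121 (2.16) and Gfra1 (1.76). Gpnmb, a transmembrane glycoprotein gene of lysosomes and melanosomes, differed by -1.32 at 4 h and by 2.75 at 2 h. It was at 33.4, 8.25, 29.9, 7.51 and 28.9 RPKM in the pretreated libraries from 0 to 6 h and at 7.04, 4.42, 3.59, 20.3 and 23.7 RPKM in the naive ones. Wfdc3 differed by -1.28 at 4 h and by 1.38 at 2 h, at 2.96 and 0.634 RPKM at 4 h. Gm10007 differed by -1.05 at 4 h and by 1.08 at 2 h. The edgeR terms for 4 h against the other times were -3.03, -3.67 and -2.15, with an adjusted p of 0.997 for each gene in edgeR's quasi-likelihood test, so none passed the threshold. In the pretreated arm Gpnmb was low in the 1 and 4 h libraries, which also stand apart in H19 and Igfbp2, and the part of those libraries was not tested.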

How the results depend on the processing

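The counts of 2-fold genes depended on the pseudocount: with 0.1 RPKM they were 52 higher and 32 lower, and with 5 RPKM 13 and 8. They were 29 and 16 without a filter, with TMM or DESeq2 scaling, after centring and with the mean over transcripts, and 24 and 11 with a filter of 5 RPKM. With the mean of the naive 2 and 6 h libraries in place of naive 4 h they were 76 and 49, of which 23 and 9 were among the original calls. With that of the pretreated 2 and 6 h libraries in place of pretreated 4 h they were 6 and 43, sharing 1 and 5; this also turned Lmod1 to -0.034, Cyr61 to -0.28, Gpnmb to 0.51, Wfdc3 to 0.19, Socs1 to 0.36 and the medians of mitosis to 0.32, macrophage markers to 0.22 and lysosome genes to 0.017, and the naive replacement turned the endothelial markers to 0.043. The cause was not tested. The arm by 4 h term gave 0 calls in edgeR under each other scaling, filter or omitted pair, with 948 unadjusted p under 0.05 without the 6 h pair (smallest adjusted p 0.109), and 17 calls with DESeq2. Depth limits Saa3 and Wfdc17, with 31 and 20 counts in their lower library. No paired analysis was possible because each arm and time has 1 library and the labels give no replicate numbers.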

Other observations

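Fatty acid synthesis genes, gathered after the values were seen, were on the side of the cholesterol genes at 4 h. All 14 were below 0 and 7 were lower by 0.5 or more, against 51.9% and 1.59% of all tested genes. The median of these 14 genes was -0.49. Scd2, a desaturase, was at 263 (naive) and 147 RPKM (pretreated), Acss2, which makes acetyl-CoA from acetate, at 7.11 and 3.60 RPKM, and Fasn, the fatty acid synthase, at 54.4 and 38.6 RPKM. The median of the list was 0.20, -0.18, 0.26 and 0.19 at 0, 1, 2 and 6 h, so it was below 0 in the 1 and 4 h pairs.

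Of 36 lysosome genes, also gathered after the values were seen, 34 were below 0 at 4 h and 3 were lower by 0.5 or more. Of all tested genes, 51.9% and 1.59% were. The median of the lysosome genes was -0.23. Lamp1, a membrane protein of lysosomes, was at 527 and 408 RPKM, Gla, a galactosidase, at 22.98 and 13.8 RPKM, and the protease genes Ctsl and Ctsz at 132 and 131 RPKM and at 86.0 and 85.0 RPKM. At 0, 1, 2 and 6 h the medians were 0.49, 0.37, 0.54 and 0.10.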
